A study of Mus musculus with 18 samples.

Results

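Transcript levels of the circadian clock genes were examined in colon crypt epithelial cells of mice that lacked microbes, received them, or were raised with them. The 10 clock genes were those rows of the gene count table that carry the symbols Arntl, Clock, Per1, Per2, Per3, Cry1, Nr1d1, Nr1d2, Dbp and Nfil3, out of 24047 genes in all. RNA-Seq was performed on intact crypts released from the colon with EDTA, in 18 libraries. All mice were C57BL/6. They carried 1 of 2 genotype labels, WT or Ern2-/-, where Ern2 encodes an endoplasmic reticulum stress sensor found in mucosal epithelium. GF mice carried no microbes and lived in isolators on autoclaved supplies. COLONIZED mice were germ-free mice that received a single gavage of cecal microbes from a conventional WT donor and were examined 14 days later, after housing in sterile cages outside the isolator. CONV mice had carried a conventional microbiota throughout. Genotype and microbial state made 6 groups of 3 libraries each: GF-WT, COLONIZED-WT, CONV-WT and the libraries labelled GF-Ern2-/-, COLONIZED-Ern2-/- and CONV-Ern2-/-. The sources used here give neither the age of these mice nor the time of day at which the tissue was taken.

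The circadian clock is a transcriptional feedback loop that runs in most cells, the intestinal epithelium included, with a period of about a day. BMAL1, the product of Arntl, and CLOCK form a dimer that binds E-box sequences and activates the Per and Cry genes, whose proteins return to inhibit that dimer. The same dimer activates Nr1d1 and Nr1d2, nuclear receptors (REV-ERBs) that repress Arntl and Nfil3 through ROR elements, and Dbp, an activator that binds the D-box sites at which NFIL3 acts as a repressor. Most of these transcripts rise and fall over the day, with Arntl and Nfil3 near the opposite phase to Nr1d1 and Dbp, and in the gut their timing also follows feeding. Each library is a single collection, so a change in a gene's mean level over the day and a change in the hour of its peak cannot be told apart in these data.

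Promoter sequence is shown for the clock genes that differed between microbial states in the comparisons below and whose window held 1 of the 4 motifs given here, since these sites are where the members act on each other. The windows run from 250 bases before to 50 bases after the start of a RefSeq transcript in GRCm38.p6, and 9 of the 10 genes were matched, with 13 windows. Per2 was not matched. Capitals mark a match on either strand to the E-box CACGTG, the related E'-box CACGTT, the D-box TTATGTAA or TTACGTAA, or the ROR element TAGGTCA, and each line reads 5′ to 3′ on the strand of the gene. Per1 had a second window with none of these motifs, and its first (chr11:69098699-69098998, + strand) had an E-box 166 bases before the start. The Per3 window (chr4:151044616-151044915, - strand) had D-boxes 205 and 158 bases before it, and the Cry1 window (chr10:85185005-85185304, - strand) had an E'-box at 79 and an E-box at 60 bases. The Nr1d1 window (chr11:98775328-98775627, - strand) had an E'-box 28 bases and the Nfil3 window (chr13:52980990-52981289, - strand) a ROR element 12 bases before the start.
Per1: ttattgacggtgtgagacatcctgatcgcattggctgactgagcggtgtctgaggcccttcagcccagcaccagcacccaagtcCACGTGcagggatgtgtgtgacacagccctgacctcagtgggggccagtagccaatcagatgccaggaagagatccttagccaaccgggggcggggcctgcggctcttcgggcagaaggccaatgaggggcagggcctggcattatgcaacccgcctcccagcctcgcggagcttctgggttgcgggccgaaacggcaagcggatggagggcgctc
Per3: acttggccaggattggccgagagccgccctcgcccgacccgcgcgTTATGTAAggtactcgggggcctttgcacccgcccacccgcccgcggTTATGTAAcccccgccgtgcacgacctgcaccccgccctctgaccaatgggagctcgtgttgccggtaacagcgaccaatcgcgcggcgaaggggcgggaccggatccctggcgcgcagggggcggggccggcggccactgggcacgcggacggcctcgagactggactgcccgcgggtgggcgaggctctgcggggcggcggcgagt
Cry1: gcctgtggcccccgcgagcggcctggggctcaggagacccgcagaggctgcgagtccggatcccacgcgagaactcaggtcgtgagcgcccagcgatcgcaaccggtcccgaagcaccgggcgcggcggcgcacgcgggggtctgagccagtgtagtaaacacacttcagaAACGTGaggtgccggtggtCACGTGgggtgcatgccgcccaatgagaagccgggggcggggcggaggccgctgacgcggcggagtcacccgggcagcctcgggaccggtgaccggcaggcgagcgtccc
Nr1d1: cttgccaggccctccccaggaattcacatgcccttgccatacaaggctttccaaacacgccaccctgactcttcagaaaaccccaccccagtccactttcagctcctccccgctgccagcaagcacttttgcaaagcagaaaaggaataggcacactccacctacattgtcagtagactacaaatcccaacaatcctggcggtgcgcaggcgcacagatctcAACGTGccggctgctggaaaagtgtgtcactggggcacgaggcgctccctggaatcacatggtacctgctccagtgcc
Nfil3: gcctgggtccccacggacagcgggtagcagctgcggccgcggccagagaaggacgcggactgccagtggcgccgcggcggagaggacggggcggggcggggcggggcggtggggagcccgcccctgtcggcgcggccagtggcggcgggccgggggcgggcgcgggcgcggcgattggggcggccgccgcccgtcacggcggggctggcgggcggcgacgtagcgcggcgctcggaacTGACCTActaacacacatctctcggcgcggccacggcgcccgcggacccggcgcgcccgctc
The printed matches did not overlap each other. A second Arntl window held a ROR element 30 bases after its start. Among all 32851 RefSeq windows of this length, 7.15% held the E-box, 4.68% the E'-box, 1.06% the D-box and 2.61% the ROR element. No match to these letters lay in the windows of Clock, Nr1d2 and Dbp, which says nothing of sites elsewhere in those genes.

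Total counts per library lay between 5865619 and 23154481, with the 3 lowest in the CONV groups. Levels below are normalized counts, that is, counts divided by the size factor of the library, and all 10 genes were counted in every library. Normalized Ern2 counts in 3 libraries labelled Ern2-/- (GF replicates 1 and 3 and COLONIZED replicate 1) were 2877, 3336 and 2567, which lay within or above the WT range of 1909 to 3100.3. COLONIZED-Ern2-/- replicate 3 had 1885, just under that range, and the other 5 libraries with this label had 386 to 1622, so genotype here means the label. A Y-linked expression pattern was found in 0 of 3 GF-WT libraries, 2 COLONIZED-WT, 1 CONV-WT, 2 GF-Ern2-/-, 2 COLONIZED-Ern2-/- and 3 CONV-Ern2-/-. All 7 epithelial markers were detected in every library, with summed levels between 108494 and 165444. Other cell type markers differed between libraries of the same group. GF-Ern2-/- replicate 2 had a summed level of 6 surface colonocyte markers of 414356, against 44239 and 65552 in its group. In CONV-WT replicate 3 that sum was 279192, against 27268 and 57784 in its group, and the sum of 8 goblet cell markers was 60124, against 413397 and 364773 in its group and 55501 to 67943 in CONV-Ern2-/-. The sum of 11 immune markers was 2651 in COLONIZED-WT replicate 2, against 215 and 156 in its group, and 1215 in COLONIZED-Ern2-/- replicate 1, against 467 and 169. The goblet cell sum of COLONIZED-Ern2-/- replicate 1 was 265233, against 140414 and 136818 in its group.

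**Figure D1:**
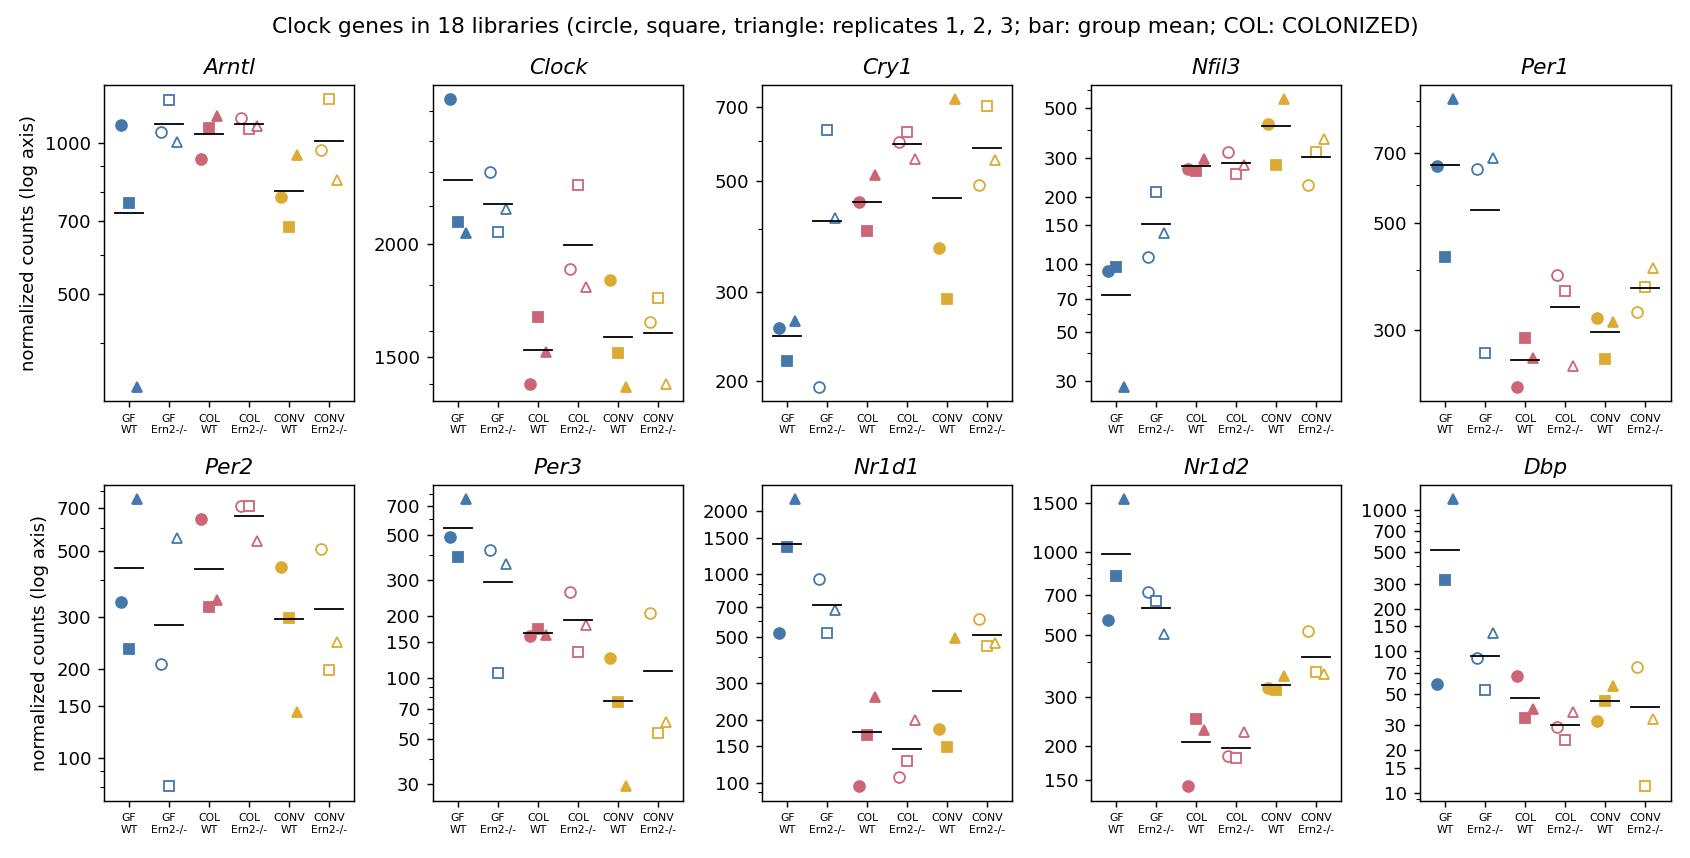
Normalized counts (log axis) of the 10 clock genes in 18 libraries, with 1 panel per gene, filled symbols for WT, open symbols for libraries labelled Ern2-/-, circle, square and triangle for replicates 1, 2 and 3, and a bar at each group mean. Nr1d1 and Nr1d2 were lower in all 6 COLONIZED libraries than in any GF library, Nfil3 was higher in all 6, and GF-WT replicate 3 was the highest library in 6 panels and the lowest in 2.

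Per length, with the counts divided by the annotated exon bases of each gene (GENCODE models of GRCm38), Nr1d1 had the highest mean over the 18 libraries, at 174 normalized counts per kilobase, and the widest range, 31.3 to 745. Cry1 and Clock averaged 137 per kilobase, Arntl 128 and Nfil3 124. Nr1d2 (84.8), Per1 (72.6), Per2 (69.0) and Dbp (43.1) were lower, and Per3 was lowest at 24.0 per kilobase. The order of neighbouring genes is not fixed, since their ranges over libraries overlap. Exons of Nr1d1 share 263 bases (8.55%) with Thra on the opposite strand, and exons of Dbp share 539 bases (18.0%) with Sphk2. The strand setting of the counting is not given in the sources used here, so some reads of these pairs may not be separable. Mean normalized counts over the 18 libraries were 1638 for Sphk2 against 129 for Dbp, and 1088 for Thra against 535 for Nr1d1.

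In WT mice, colonization of germ-free animals was accompanied by lower Nr1d1, Nr1d2, Dbp, Per1, Per3 and Clock and by higher Nfil3 and Cry1. DESeq2, fitted to the 6 libraries with a call at an adjusted p under 0.01, thus called 8 of the 10 clock genes between COLONIZED-WT and GF-WT, where it called 18.3% of all genes tested. Of these, 6 were lower, against 8.97% of all genes, and 2 were higher, against 9.35%. The median log2 difference of the 10 was −0.98, against −0.01 over all genes tested. Values of the groups did not overlap for 7 of the 10 genes, against 46.6% of all genes. Arntl and Per2 did not pass. The count rested on the test, since edgeR called 3 (Cry1, Nr1d2 and Per3) where it called 4.94% of all genes, and with sex as a covariate DESeq2 called 1 (Per3), where it called 1.92% of all genes. No GF-WT library had the Y-linked pattern, against 2 of the 3 COLONIZED-WT libraries.

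CONV-WT mice differed from GF-WT mice at 6 of the same 10 genes, a count that was 3 to 5 when 1 library was left out. Nr1d1, Nr1d2, Dbp, Per1 and Per3 were lower and Nfil3 was higher, where DESeq2 called 11% of all genes tested, with 5.28% lower and 5.68% higher. Values did not overlap for 8 of the 10 genes, against 36.2% of all genes. The 6 called genes were among the 8 called after colonization, and both comparisons share the GF-WT libraries. Only 3 were called without GF-WT replicate 3 (Nfil3, Nr1d2 and Per3), CONV-WT replicate 1 or CONV-WT replicate 2 (Dbp, Nfil3 and Per3 in both), where 5.09%, 6.77% and 4.31% of all genes were called. edgeR called 0 at the same threshold (8 at an unadjusted p under 0.05 by DESeq2), where it called 0.175% of all genes, and with sex as a covariate DESeq2 called 3 (Dbp, Nfil3 and Per3), where it called 6.64% of all genes. Between CONV-WT and COLONIZED-WT no clock gene was called by DESeq2 or edgeR (3 at an unadjusted p under 0.05 by DESeq2). Of all genes, DESeq2 called 0.119% and edgeR 0 of 12650. The lowest unadjusted p was that of Nr1d2, at 0.67 on the log2 scale (SE 0.27, DESeq2 adjusted p 0.344, 95% interval 0.15 to 1.20).

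Among the libraries labelled Ern2-/-, Nr1d1, Nr1d2 and Dbp were lower in COLONIZED-Ern2-/- than in GF-Ern2-/-, which made 3 of 10 called by DESeq2 where it called 7.17% of all genes, 3.57% as lower. By edgeR 0 were called (5 had an unadjusted p under 0.05 by DESeq2), against 0.216% of all genes. Values did not overlap for 4 of the 10, against 33.1% of all genes. Between CONV-Ern2-/- and GF-Ern2-/- no clock gene was called by DESeq2 or edgeR, with 4 at an unadjusted p under 0.05 by DESeq2. Of all genes, DESeq2 called 4.34% and edgeR 0.0325%. Nr1d1 and Nr1d2 were higher in CONV-Ern2-/- than in COLONIZED-Ern2-/- (2 of 10 called by DESeq2, against 8.59% of all genes, 4.86% as higher). By edgeR 0 of 10 were called (3 had an unadjusted p under 0.05 by DESeq2), against 0.282% of all genes, and values did not overlap for 4 of the 10, against 35.9% of all genes. These counts depended on single libraries. Without GF-Ern2-/- replicate 2 they were 5 in COLONIZED and 2 in CONV against GF mice, where 10.4% and 7.14% of all genes were called. The GF libraries with this label then left were those with Ern2 as high as in WT. Without CONV-Ern2-/- replicate 1 there were 4 in CONV against COLONIZED mice, where 18.4% were called. One fit over all 18 libraries called neither Nr1d1 nor Nr1d2 between CONV-Ern2-/- and COLONIZED-Ern2-/-. P-values in all comparisons measure the spread between 3 libraries per group, and nothing in the labels ties a library to a litter or cage.

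**Figure D2:**
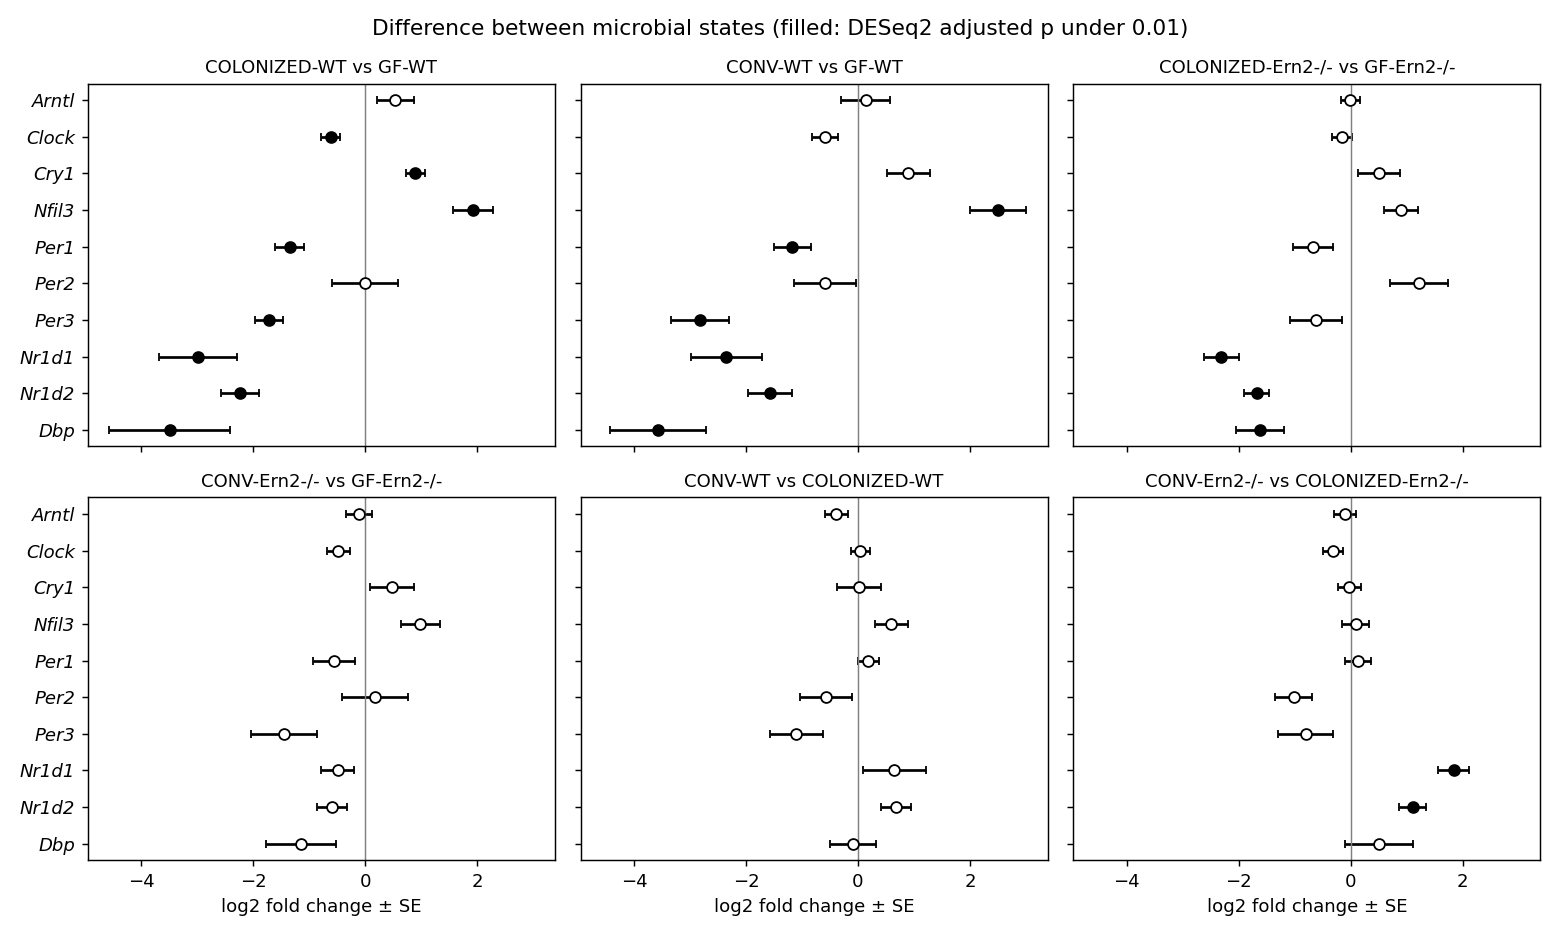
Log2 fold changes with SE (DESeq2, horizontal axis) of the 10 clock genes in 6 comparisons of microbial states, 3 libraries per group, with filled points for genes called at an adjusted p under 0.01. In COLONIZED-WT against GF-WT 8 points are filled and in CONV-WT against GF-WT 6, and in both Dbp lies farthest to the left and Nfil3 farthest to the right.

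Of the positive arm, Arntl did not pass the test in any comparison with all libraries. Normalized Arntl counts in replicates 1, 2 and 3 were 1090.1, 761 and 328 for GF-WT, 929, 1073 and 1135 for COLONIZED-WT, and 781, 681 and 949.6 for CONV-WT. Libraries labelled Ern2-/- gave 1051, 1219 and 1007 for GF, 1122, 1067 and 1083 for COLONIZED, and 968, 1224 and 844 for CONV mice. GF-WT replicate 3 was the lowest library of all, and the other 17 lay between 681 and 1224. The difference between COLONIZED-WT and GF-WT was 0.54 on the log2 scale (SE 0.33, DESeq2 adjusted p 0.215), and it was called when GF-WT replicate 1 was left out.

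Clock, the partner of Arntl, varied least within groups of the 10 genes. Its normalized counts were 2888, 2115 and 2056 for GF-WT, 1399, 1660.0 and 1518 for COLONIZED-WT, and 1823, 1515 and 1389.7 for CONV-WT. All GF-WT libraries lay above all COLONIZED-WT and CONV-WT libraries. Clock fell by 0.61 on the log2 scale with colonization of WT mice (SE 0.17, DESeq2 adjusted p 0.00234, edgeR adjusted p 0.0254). The call was lost without COLONIZED-WT replicate 1 (adjusted p 0.0365) or 3 (0.0234). In CONV-WT against GF-WT the log2 fold change was −0.59 (SE 0.23, adjusted p 0.053). Clock counts with the Ern2-/- label were 2397, 2059 and 2187 for GF, 1873, 2321 and 1790.3 for COLONIZED, and 1639.5, 1742 and 1399 for CONV mice, and the GF and COLONIZED values overlapped.

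Among the negative arm, Per1 and Per3 were highest in germ-free mice. Per1, an inhibitor of the BMAL1 and CLOCK dimer, had normalized counts of 658, 425 and 908 for GF-WT, 228, 288 and 262 for COLONIZED-WT, and 317, 261 and 310.4 for CONV-WT. The GF-WT libraries lay above all other WT libraries. Per1 was 2.55-fold lower in COLONIZED-WT (log2 fold change −1.35, SE 0.26, DESeq2 adjusted p 8.02e-06, edgeR adjusted p 0.0131) and 2.26-fold lower in CONV-WT (−1.18, SE 0.33, DESeq2 adjusted p 0.00397, edgeR adjusted p 0.0528). The first call held in 6 of 6 fits that left out 1 library. The second was lost without GF-WT replicate 1 (adjusted p 0.0352) or 3 (0.0561) and without CONV-WT replicate 1 (0.02) or 2 (0.0659). Counts under the Ern2-/- label were 650.3, 269 and 684 for GF, 389, 361 and 252 for COLONIZED, and 326, 369 and 403 for CONV mice. GF-Ern2-/- replicate 2, which stood apart in its surface colonocyte markers, lay at the level of the mice with microbes. No difference passed with all libraries, and without this library Per1 was called lower in both COLONIZED-Ern2-/- and CONV-Ern2-/-. Those fits kept only GF-Ern2-/- replicates 1 and 3, in which Ern2 was as high as in WT.

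Per3, a paralogue of Per1 in the same inhibitory complex, showed the tightest COLONIZED-WT values. Its normalized counts were 489, 391 and 754 for GF-WT, 159.7, 173 and 163 for COLONIZED-WT, and 124, 76.1 and 29.2 for CONV-WT. The WT groups did not overlap. Per3 was 3.28-fold lower in COLONIZED-WT than in GF-WT (−1.71, SE 0.25, DESeq2 adjusted p 7.03e-10, edgeR adjusted p 0.00714) and 7.08-fold lower in CONV-WT (−2.82, SE 0.51, DESeq2 adjusted p 2.07e-06, edgeR adjusted p 0.0294). Both calls held in every fit that left out 1 library. With the Ern2-/- label the values were 421, 105 and 359.6 for GF, 263, 133 and 181 for COLONIZED, and 208, 53.3 and 60.7 for CONV mice. These groups overlapped and no difference passed with all libraries, while without CONV-Ern2-/- replicate 1 CONV was called lower than either GF or COLONIZED.

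Per2 was not called in any comparison by the unblocked test with all libraries. Its normalized counts were 336, 234 and 749.7 for GF-WT, 640.3, 323 and 342 for COLONIZED-WT, and 443, 297 and 142 for CONV-WT. Libraries labelled Ern2-/- gave 207, 80.2 and 556 for GF, 711, 712 and 541 for COLONIZED, and 509.6, 198 and 246 for CONV mice. In each GF group 1 library stood well above the others, and it was replicate 3 in both. The log2 fold change of COLONIZED-WT against GF-WT was −0.01 with a 95% interval of −1.16 to 1.14. COLONIZED-Ern2-/- and GF-Ern2-/- differed by 1.22 on the log2 scale (SE 0.52, DESeq2 adjusted p 0.107), and Per2 was called there without GF-Ern2-/- replicate 3. It was also called in CONV-Ern2-/- against COLONIZED-Ern2-/- without CONV-Ern2-/- replicate 1 and in COLONIZED-Ern2-/- against COLONIZED-WT without COLONIZED-WT replicate 1.

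Cry1, the other inhibitor of the dimer, differed from Per1 and Per3 in direction. Normalized counts were 255, 219 and 262 for GF-WT, 453, 398 and 513 for COLONIZED-WT, and 367, 290.4 and 727 for CONV-WT. The GF-WT libraries lay below all other WT libraries. Cry1 was 1.86-fold higher in COLONIZED-WT (0.90, SE 0.17, DESeq2 adjusted p 4.45e-06, edgeR adjusted p 0.00759), and this held in 6 of 6 fits that left out 1 library. The estimate for CONV-WT was of the same size but less precise (0.90, SE 0.39, adjusted p 0.0866). Counts under the Ern2-/- label were 195, 631 and 421 for GF, 598, 627 and 554 for COLONIZED, and 491, 704 and 549 for CONV mice. GF-Ern2-/- replicate 2, the library with high surface colonocyte markers, was as high as the COLONIZED libraries, and no difference passed.

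The REV-ERB genes were called in more comparisons than the other members. Normalized Nr1d1 counts were 521, 1353 and 2294 for GF-WT, 96.3, 170.4 and 258 for COLONIZED-WT, and 182, 148 and 495 for CONV-WT. With the Ern2-/- label the values were 946, 522 and 675 for GF, 106, 128 and 201 for COLONIZED, and 612, 451 and 469 for CONV mice. Every GF library lay above every COLONIZED library, and the highest COLONIZED value (258) was less than the lowest GF value (521). Nr1d1 was 7.92-fold lower in COLONIZED-WT than in GF-WT (−2.99, SE 0.69, DESeq2 adjusted p 0.000221, edgeR adjusted p 0.0119) and 4.96-fold lower in COLONIZED-Ern2-/- than in GF-Ern2-/- (−2.31, SE 0.32, DESeq2 adjusted p 1.55e-10, edgeR adjusted p 0.0152). Both DESeq2 calls held in 6 of 6 fits that left out 1 library.

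Nr1d1 in the CONV groups was compared with both other states. CONV-WT was 5.09-fold lower than GF-WT (−2.35, SE 0.63, DESeq2 adjusted p 0.00244, edgeR adjusted p 0.0733). That call was lost without GF-WT replicate 2 (adjusted p 0.0234) or 3 (0.0648) and without CONV-WT replicate 1 (0.0181) or 2 (0.0299). CONV-Ern2-/- was 3.56-fold higher than COLONIZED-Ern2-/- (1.83, SE 0.28, DESeq2 adjusted p 1.76e-08, edgeR adjusted p 0.0132) with no overlap. The call held in 6 of 6 fits that left out 1 library, but not in one fit over all 18 libraries. CONV-Ern2-/- differed from GF-Ern2-/- by −0.49 (SE 0.30, adjusted p 0.373), where the groups overlapped.

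Nr1d2, the paralogue of Nr1d1, had its group means in the same order. Its normalized counts were 565, 817 and 1545 for GF-WT, 143, 249.7 and 228 for COLONIZED-WT, and 322, 316 and 356 for CONV-WT. The WT groups did not overlap, with GF-WT highest and COLONIZED-WT lowest. Nr1d2 was 4.70-fold lower in COLONIZED-WT than in GF-WT (−2.23, SE 0.34, DESeq2 adjusted p 3.96e-09, edgeR adjusted p 0.00961), and 2.97-fold lower in CONV-WT (−1.57, SE 0.40, DESeq2 adjusted p 0.00117, edgeR adjusted p 0.048). The CONV-WT call was lost without CONV-WT replicate 1 (adjusted p 0.0109) or 2 (0.0215). Libraries labelled Ern2-/- gave 714, 665 and 502 for GF, 184, 181 and 224 for COLONIZED, and 519, 369 and 361 for CONV mice. COLONIZED-Ern2-/- lay below both other groups and was 3.21-fold lower than GF-Ern2-/- (−1.68, SE 0.23, DESeq2 adjusted p 5.51e-11, edgeR adjusted p 0.0115). CONV-Ern2-/- was 2.15-fold higher than COLONIZED-Ern2-/- (1.10, SE 0.24, DESeq2 adjusted p 0.00012, edgeR adjusted p 0.0209). One fit over all 18 libraries did not call this difference.

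Of the output genes, Dbp had the largest fold change and the widest spread. Normalized Dbp counts were 58.4, 320.1 and 1186 for GF-WT, 66.3, 33.8 and 38.9 for COLONIZED-WT, and 32.1, 44.4 and 56.6 for CONV-WT. GF-WT replicate 1 lay within the COLONIZED-WT range, and replicate 3 was the highest of all libraries. Dbp was 11.2-fold lower in COLONIZED-WT than in GF-WT (−3.49, SE 1.08, DESeq2 adjusted p 0.0076, edgeR adjusted p 0.0344), but leaving out 1 library at a time it was called in 1 of 6 fits. The adjusted p was 0.0874 without GF-WT replicate 3, where the log2 fold change was −2.02, 0.0245 without GF-WT replicate 2, and from 0.0277 to 0.0556 without any 1 of the COLONIZED-WT libraries. In CONV-WT it was 11.9-fold lower (−3.57, SE 0.85, DESeq2 adjusted p 0.000497, edgeR adjusted p 0.0748), a call lost without GF-WT replicate 3 (−2.11, adjusted p 0.0447) or CONV-WT replicate 3 (0.0188).

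Dbp counts with the Ern2-/- label were 88.7, 53.1 and 133 for GF, 29.2, 23.4 and 37.1 for COLONIZED, and 77.3, 11.1 and 33.1 for CONV mice. The CONV-Ern2-/- replicate 2 value rests on 5 counts, for which the 95% exact Poisson interval, covering counting error only, is 1.62 to 11.7. Dbp was 3.08-fold lower in COLONIZED-Ern2-/- than in GF-Ern2-/- (−1.62, SE 0.43, DESeq2 adjusted p 0.00293, edgeR adjusted p 0.0542), without overlap. The call was made in 1 of 6 fits that left out 1 library, the one without GF-Ern2-/- replicate 2. That fit kept only GF libraries of this label with Ern2 as high as in WT. Without the libraries labelled Ern2-/- whose Ern2 was as high as in WT, 1 GF library (replicate 2, with the high surface colonocyte sum) remained against 2 COLONIZED libraries and was assumed to vary like the others. The Dbp value was then −0.84 (adjusted p 0.545), while Nr1d1, Nr1d2 and Per2 were called, where 10.5% of all genes were.

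Nfil3, the repressor at D-boxes, moved opposite to Dbp. Normalized counts were 93.0, 97.4 and 28.5 for GF-WT, 266, 261 and 297 for COLONIZED-WT, and 425, 279 and 546 for CONV-WT. Every library with microbes lay above every GF-WT library. Nfil3 was 3.80-fold higher in COLONIZED-WT (1.93, SE 0.36, DESeq2 adjusted p 3.57e-06, edgeR adjusted p 0.0146) and 5.68-fold higher in CONV-WT (2.51, SE 0.50, DESeq2 adjusted p 2.17e-05, edgeR adjusted p 0.0331), in 6 of 6 fits that left out 1 library in each comparison. Counts under the Ern2-/- label were 108, 209.6 and 139 for GF, 319, 253 and 278 for COLONIZED, and 227, 318 and 364 for CONV mice. The GF-Ern2-/- libraries lay below the others, and the log2 fold changes were 0.89 for COLONIZED-Ern2-/- (SE 0.30, DESeq2 adjusted p 0.0271) and 0.98 for CONV-Ern2-/- (SE 0.34, DESeq2 adjusted p 0.0551). Nfil3 had the lowest unadjusted p in the CONV-Ern2-/- comparison and passed when GF-Ern2-/- replicate 2 was left out (adjusted p 0.00173). Without that library it was also called in COLONIZED-Ern2-/-. Both fits kept only GF libraries of this label with Ern2 as high as in WT.

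The genotype label was compared within each microbial state to ask whether it alters the clock genes. No clock gene was called in GF mice by DESeq2 or edgeR (4 at an unadjusted p under 0.05 by DESeq2). Of all genes, DESeq2 called 0.035% and edgeR 0 of 12604. Dbp had the lowest unadjusted p there, at −2.51 in GF-Ern2-/- against GF-WT (SE 1.10, DESeq2 adjusted p 1, 95% interval −4.66 to −0.36), and it was called without GF-WT replicate 1 (−3.03, adjusted p 0.00045). Without the GF-Ern2-/- libraries whose Ern2 was as high as in WT, the single library left in that group was replicate 2, assumed to vary like the others. In that fit 3 clock genes (Cry1, Per2 and Per3) were called, where 4.53% of all genes were, and this library has the high surface colonocyte sum and the extreme values of its group for these genes. In COLONIZED mice no clock gene was called by DESeq2 or edgeR (3 at an unadjusted p under 0.05), where DESeq2 called 1.37% of all genes and edgeR 0.00786%. Clock came closest, at 0.38 (SE 0.15, DESeq2 adjusted p 0.0934, 95% interval 0.09 to 0.67). In CONV mice no clock gene was called by DESeq2 or edgeR (0 at an unadjusted p under 0.05), where DESeq2 called 3.03% of all genes and edgeR 0 of 12128. Nr1d1 came closest, at 0.90 (SE 0.49, DESeq2 adjusted p 0.332, 95% interval −0.06 to 1.86), and was called without CONV-WT replicate 3 (1.63, adjusted p 5.27e-08), the library set apart by its goblet and surface colonocyte markers, where 12.4% of all genes were called.

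Whether the response to microbes differed between genotype labels was tested by an interaction term over 12 libraries. For COLONIZED against GF mice, DESeq2 called no clock gene (2 at an unadjusted p under 0.05, edgeR 0). Of all genes, DESeq2 called 0.028% and edgeR 0 of 13045. The lowest unadjusted p was that of Nfil3 (−1.02, SE 0.52, adjusted p 0.864, 95% interval −2.04 to −0.01). For CONV against GF mice DESeq2 called none (4 at an unadjusted p under 0.05, edgeR 0). It called 0.177% of all genes and edgeR 0 of 12900. Nr1d1 came closest (1.85, SE 0.74, adjusted p 0.346, 95% interval 0.40 to 3.31). Without CONV-WT replicate 3 the Nr1d1 term was 2.58 (adjusted p 0.00309), where 2.23% of all genes were called. In the COLONIZED interaction Per3 was called without the libraries labelled Ern2-/- whose Ern2 was as high as in WT, a fit with GF-Ern2-/- replicate 2 as the single library of its group and 3.41% of all genes called. The difference in the Nr1d1 response between WT and Ern2-/- labels for CONV against COLONIZED mice was not tested.

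Beyond the 10 members, 17 other genes of the clock were examined. In COLONIZED-WT against GF-WT, DESeq2 called 3 of them lower and 1 higher, against 8.97% and 9.35% of all genes. These were Ciart, a repressor of the dimer (−4.01, SE 0.81, adjusted p 1.67e-05), Rora, an activator at ROR elements (−1.58, SE 0.37, adjusted p 0.000223), Cry2, a paralogue of Cry1 (−1.34, SE 0.37, adjusted p 0.00217), and Timeless, which also serves DNA replication (1.43, SE 0.22, adjusted p 7.22e-09). In CONV-WT against GF-WT 3 were called lower (Ciart, Rora and the Dbp relative Tef) and 1 higher (Timeless), against 5.28% and 5.68% of all genes. In COLONIZED-Ern2-/- against GF-Ern2-/- 1 was called lower (Tef, −1.25) and 1 higher (Timeless, 0.86), where 7.17% of all genes were called in either direction. By edgeR 1 of the 17 was called in COLONIZED-WT (Timeless), where it called 4.94% of all genes. It called 0 in CONV-WT and COLONIZED-Ern2-/-, against 0.175% and 0.216% of all genes. In fits that left out 1 library the COLONIZED-WT calls of Rora and Timeless held in 6 of 6, that of Ciart in 3 and that of Cry2 in 1. The CONV-WT calls held in 1 to 3 of 6, and in COLONIZED-Ern2-/- Tef held in 6 and Timeless in 0. DESeq2 called none of the 17 in the other 6 pairwise comparisons, and edgeR called none there either (between 0 and 5 had an unadjusted p under 0.05 by DESeq2). Of all genes, DESeq2 called 0.035% to 8.59% in these comparisons and edgeR 0 to 0.282%.

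Because feeding and adrenal hormones can act on clock genes, 9 genes that can respond to them were counted in the same fits. The list is not particular to these signals, so its counts are not a measure of feeding or hormones. DESeq2 called 5 lower in COLONIZED-WT than in GF-WT (Sgk1, Zbtb16, Fos, Junb and Dusp1), against 8.97% of all genes, and 1 lower in CONV-WT than in GF-WT (Zbtb16), against 5.28%. It called 3 lower in COLONIZED-Ern2-/- than in GF-Ern2-/- (Zbtb16, Junb and Dusp1), against 3.57% of all genes. In CONV-Ern2-/- it called 1 lower than in GF-Ern2-/- (Zbtb16), where 4.34% of all genes were called in either direction, and 4 higher than in COLONIZED-Ern2-/- (Tsc22d3, Sgk1, Junb and Dusp1), against 4.86% of all genes, the comparison in which Nr1d1 and Nr1d2 were also higher. By edgeR 2 were called in COLONIZED-WT against GF-WT (Fos and Junb), against 4.94% of all genes, and 0 in the other 4 of these comparisons, where it called 0.0325% to 0.282%. In fits that left out 1 library the COLONIZED-WT calls of Sgk1, Zbtb16, Fos and Junb held in 6 of 6 and that of Dusp1 in 1. In CONV-WT against GF-WT Zbtb16 held in 6 of 6. There Sgk1, Junb and Dusp1, not called with all libraries, were each called in 1. In CONV-Ern2-/- against CONV-WT 0 of the 9 were called with all libraries, where DESeq2 called 3.03% of all genes. Fkbp5, Tsc22d3, Sgk1, Fos, Junb and Dusp1 were each called there in 1 of 6 such fits. These calls in 1 fit stand without the share of all genes called in it, so they cannot be read against that share. The part of these 9 genes in the clock gene results was not tested.

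Markers of cell types also moved with microbial state. Of 6 proliferation markers, 5 were called higher by DESeq2 in COLONIZED-WT than in GF-WT and 4 higher in COLONIZED-Ern2-/- than in GF-Ern2-/-, with summed levels of 12593 to 17560.0 in the COLONIZED libraries and 5134 to 8680.0 in the GF libraries. In CONV-WT 2 were higher than in GF-WT, and in CONV-Ern2-/- 2 were lower than in COLONIZED-Ern2-/-. Of 8 goblet cell markers, 4 were higher and 2 lower in COLONIZED-WT than in GF-WT, and 1 was higher and 2 lower in CONV-WT than in GF-WT. In COLONIZED-Ern2-/- 3 were higher and 1 lower than in GF-Ern2-/-, and 1 was lower than in COLONIZED-WT. In CONV-Ern2-/- 5 were lower than in COLONIZED-Ern2-/- and 3 lower than in GF-Ern2-/-. Of 7 epithelial markers, 2 were higher in CONV-Ern2-/- than in COLONIZED-Ern2-/-, and 1 was higher in each of COLONIZED-WT and CONV-WT than in GF-WT. Of 6 surface colonocyte markers, 2 were lower in COLONIZED-WT and 4 lower in CONV-WT than in GF-WT. In COLONIZED-Ern2-/- 5 were lower than in GF-Ern2-/-, and in CONV-Ern2-/- 5 were higher than in COLONIZED-Ern2-/-. Nr1d1 and Nr1d2 were called in these 4 comparisons. The summed surface levels of GF-WT (33707 to 151214) overlapped with COLONIZED-WT (69870.5 to 166207) and CONV-WT (27268 to 279192). Those of COLONIZED-Ern2-/- (86330 to 163919) overlapped with GF-Ern2-/- (44239 to 414356) and lay below CONV-Ern2-/- (286116 to 394158). GF-Ern2-/- replicate 2 had the highest sum but the lowest Nr1d1 count of its group (522). In CONV-Ern2-/- against CONV-WT 4 of these surface colonocyte markers were called higher and 4 of the goblet cell markers lower. There Nr1d1 (0.90) and Nr1d2 (0.34, without overlap of the groups) were not called with all libraries. The summed level of the immune markers ran from 143 to 278 in GF-WT and from 156 to 2651 in COLONIZED-WT, and 0 of 11 were called there. Of 9 mesenchyme and muscle markers, 2 were higher in CONV-WT than in GF-WT, 1 was higher in CONV-Ern2-/- than in GF-Ern2-/- and 2 were higher than in COLONIZED-Ern2-/-, with summed levels of 28.2 to 272 in the CONV libraries, highest in CONV-WT replicate 3, and 5.55 to 51.1 in all others. Of 5 endothelial markers, 1 was lower in COLONIZED-Ern2-/- than in GF-Ern2-/- and 1 higher in CONV-Ern2-/- than in COLONIZED-Ern2-/-. Of 5 pancreatic acinar markers, 3 were at 0 in every library, and 1 was called lower in each comparison of a state with microbes against GF and in CONV-Ern2-/- against COLONIZED-Ern2-/-. Of 5 enteric glia and neuron markers 0 were called. In bulk samples, fewer cells of a type and less RNA per cell cannot be told apart, and the part of these shifts in the clock gene results was not tested.

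Libraries of the same group differed in the clock genes by more than most genes did. The SD of log2(normalized count + 1) within groups, pooled over the 6 groups, was 1.12 for Dbp, 0.84 for Per2, 0.81 for Per3 and 0.71 for Nr1d1, against a median of 0.27 over the 10852 genes with a mean normalized count of at least 50. These values lay at the 98.6, 96.8, 96.4 and 94.5 percentiles of those genes. The median over the 10 clock genes was 0.49. Clock was lowest, at 0.19 (22.4 percentile). GF-WT replicate 3 held the highest of the 18 values for 6 members (Per1, Per2, Per3, Nr1d1, Nr1d2 and Dbp) and the lowest for 2 (Arntl and Nfil3).

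**Figure D3:**
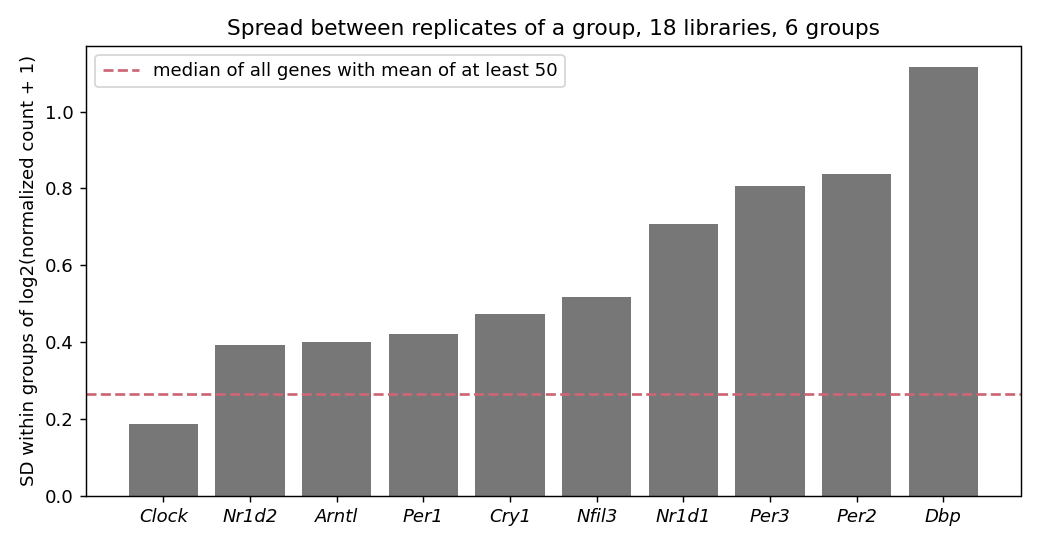
SD within groups of log2(normalized count + 1) for each clock gene (bars, vertical axis from 0, pooled over 6 groups of 3 libraries), with a dashed line at the median of all genes with a mean normalized count of at least 50. Clock is the only bar under the line of 0.27, and Dbp is highest at 1.12.

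To examine how the arms of the loop varied together, each member was correlated with Arntl across the 18 libraries, in 9 pairs. Dbp had a Pearson r of −0.754 (permutation p 0.00418, adjusted p 0.0376) and a Spearman rho of −0.457 (permutation p 0.0582, adjusted p 0.262). Without GF-WT replicate 3 and CONV-WT replicate 2, the libraries farthest from the median of Arntl, r was −0.489, so the relation rested in part on those libraries. The permutations treat the libraries as exchangeable although they fall into 6 groups. With each group mean subtracted, r for Dbp was −0.816, given with no test. None of the other 8 members passed an adjusted p of 0.05. Nfil3 had r = 0.575 (permutation p 0.0334, adjusted p 0.0776) and a rho of 0.0795 (permutation p 0.754, adjusted p 0.754), and −0.0226 without the same libraries.

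Within the 6 GF libraries, which span both genotype labels, r was farther from 0 than over all 18 for every member but Cry1. Dbp had r = −0.963 with Arntl (exact permutation p 0.00139, adjusted p 0.0125 over 9 pairs) and Nr1d1 had r = −0.915 (exact permutation p 0.00833, adjusted p 0.0375). Nfil3 (r = 0.931, exact permutation p 0.0167, adjusted p 0.0501) and Nr1d2 (r = −0.922, exact permutation p 0.0306, adjusted p 0.0688) did not pass. Without GF-WT replicates 3 and 2, which are farthest from the median of Arntl, r over the remaining 4 libraries was −0.868 for Dbp, −0.592 for Nr1d1 and 0.631 for Nfil3, and it changed sign for Nr1d2, to 0.495. Within the 6 COLONIZED libraries r for Dbp was −0.72 (exact permutation p 0.167, adjusted p 0.516), and within the 6 CONV libraries it was −0.463 (exact permutation p 0.353, adjusted p 0.635). Nr1d1 was positive there, at 0.599 and 0.753 (exact permutation p 0.194 and 0.0806). These values rest on few libraries, since without the 2 farthest from the median of Arntl in each state r for Dbp became 0.11 in COLONIZED and 0.935 in CONV libraries, and r for Nr1d1 became −0.556 and 0.88.

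**Figure D4:**
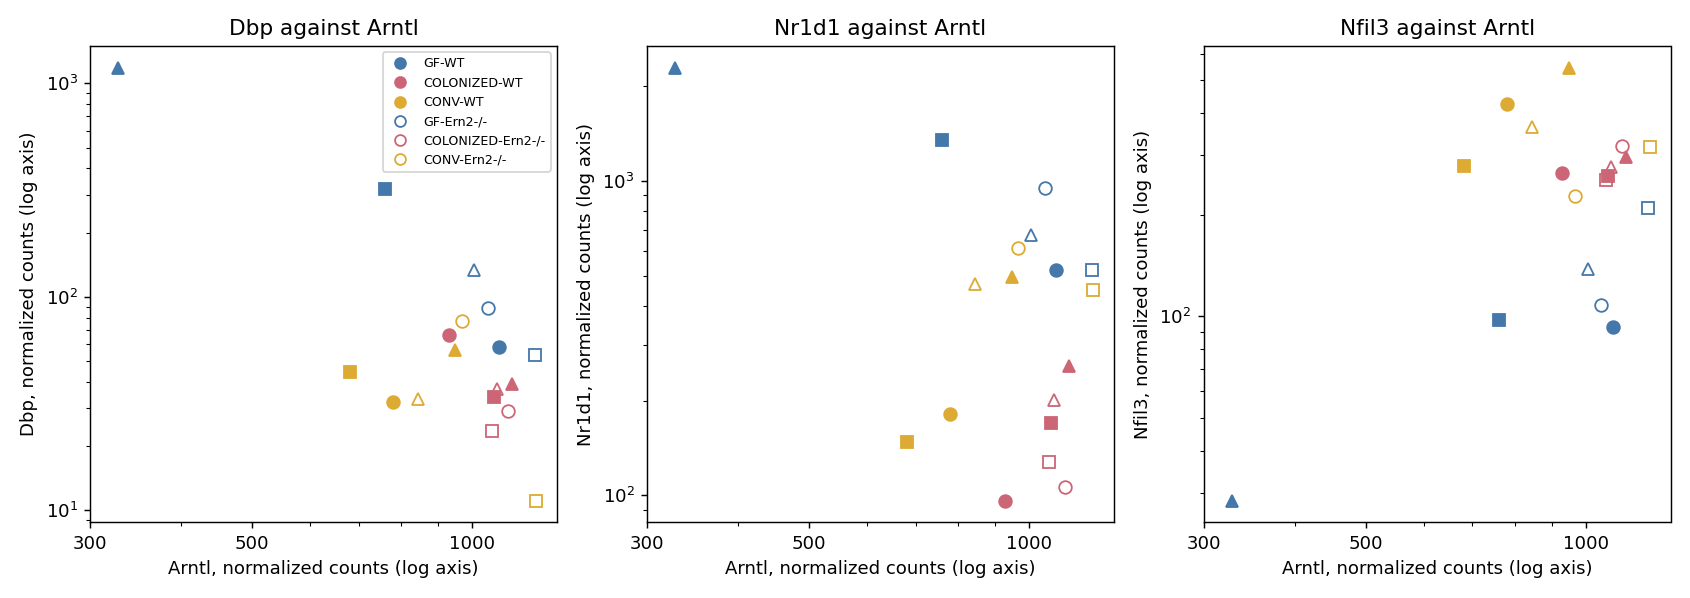
Normalized counts (log axes) of Dbp, Nr1d1 and Nfil3 against Arntl, 1 point per library in 18 libraries, coloured by microbial state, filled for WT and open for libraries labelled Ern2-/-, circle, square and triangle for replicates 1, 2 and 3. GF-WT replicate 3, with 328 Arntl counts, stands apart from the other libraries in each panel.

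Of 5 ratios between members computed in each library, 3 did not overlap between the COLONIZED and GF libraries. Each of the 3 holds Nr1d1 or Nfil3, which alone did not overlap between these libraries. Nr1d1 was at most 258 in COLONIZED and at least 521 in GF libraries, and Nfil3 was at least 253 and at most 210. The share of all gene pairs whose ratio separates these libraries was not computed. The ratio of Nr1d1 to Arntl ran from 0.428 to 7.00 in the 6 GF libraries, from 0.0945 to 0.227 in the COLONIZED libraries and from 0.217 to 0.632 in the CONV libraries. The ratio of Nfil3 to Dbp ran from 0.0240 to 3.94 in GF, from 4.01 to 10.9 in COLONIZED and from 2.93 to 28.6 in CONV libraries. The ratio of Per2 to Nr1d1 ran from 0.154 to 0.823 in GF and from 1.33 to 6.70 in COLONIZED libraries. The other ratios overlapped, with Dbp to Arntl at 0.0436 to 3.62 in GF and 0.0219 to 0.0714 in COLONIZED libraries, and Per3 to Cry1 at 0.167 to 2.87 and 0.213 to 0.440. These ratios are counts per count and not per length, and they are given as a description with no test.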

How the data were processed

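Intact colon crypts were prepared by the authors, and stranded mRNA libraries (KAPA) were sequenced as 75-cycle single-end reads and handled with the VIPER pipeline and STAR, with mm10 named in the submitters' processing notes. What the authors deposited is a table of read counts by gene symbol, neither normalized nor pooled. The annotation, the tool versions and the strand setting of the counting are not given in the sources used here. All columns belonged to a sample.

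From these counts, 9 group comparisons were tested with DESeq2 1.42.0 (Wald test, R 4.3.3), each using only the 6 libraries compared, with default settings and no shrinkage. Calls required an adjusted p (Benjamini-Hochberg, over all genes tested) under 0.01. The genotype by microbes interaction was fitted on 12 libraries, once for COLONIZED and once for CONV against GF. The code of the pairwise fits was run on counts simulated from the means and dispersions of COLONIZED-WT and GF-WT. That simulation held no sex or cell type differences between libraries, so it does not bear on calls that depend on them. Displayed levels used size factors of all 18 libraries, and correlations used log2(normalized count + 1) with 100000 permutations, or exact permutation within a microbial state. Intervals are estimates ± the normal quantile times the SE.

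Alternatives were edgeR 4.0.16 (quasi-likelihood), TMM factors, a filter of 10 counts in 3 libraries, no independent filtering, a replicate block, sex as a covariate, all 18 libraries in one fit, each library left out, another pseudocount and log2(CPM + 1). No Cook's filter and the removal of 3 libraries labelled Ern2-/- were added after seeing the data.

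All 10 members are named with their values, and fold changes are given for those called and, where fewer than 3 were called, for the member with the lowest unadjusted p. Further differences are given where a gene was described. Other clock and hormone responsive genes called are named. One gene of the list of other clock genes is not reported here and was left out of its counts. The members and lists were chosen with earlier results of these data known. Gene models came from GENCODE, promoters from RefSeq (GRCm38.p6).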

Additional observations from a re-analysis of the deposited data

How the results depend on the processing

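Among the fold changes of members that were called or had the lowest unadjusted p, none reversed in any alternative. Of the others, 2 estimates near 0 differed in sign between DESeq2 and edgeR, Per2 in COLONIZED-WT against GF-WT (−0.0092 and 0.0087) and Arntl in COLONIZED-Ern2-/- against GF-Ern2-/- (−0.0068 and 0.00044). TMM factors, the filter of 10 counts in 3 libraries, no independent filtering and no Cook's filter kept each count of called clock genes within 1.5 times its main value. edgeR called 3 clock genes in COLONIZED-WT against GF-WT and 0 each in CONV-WT against GF-WT, COLONIZED-Ern2-/- against GF-Ern2-/- and CONV-Ern2-/- against COLONIZED-Ern2-/-. Sex as a covariate left 1 and 3 calls in COLONIZED-WT and CONV-WT against GF-WT. One fit over all 18 libraries left 0 in CONV-Ern2-/- against COLONIZED-Ern2-/-, with adjusted p of 0.01 for Nr1d1 and 0.0148 for Nr1d2. Over all comparisons, 5 of the fold changes that were called or had the lowest unadjusted p were weaker in that fit, and 21 were the same. Without the libraries labelled Ern2-/- whose Ern2 was as high as in WT, 3 were called in GF-Ern2-/- against GF-WT and 1 (Per3) in the COLONIZED interaction, both with GF-Ern2-/- replicate 2 as the lone GF-Ern2-/- library and with 4.53% and 3.41% of all genes called. The cause was not tested. Leaving out 1 library gave 6 to 9 calls in COLONIZED-WT (9.22% to 20.2% of all genes) and 3 to 5 in CONV-WT (4.31% to 20.8%) against GF-WT, 2 to 5 in COLONIZED-Ern2-/- (3.42% to 10.4%) and 0 to 2 in CONV-Ern2-/- (1.9% to 7.14%) against GF-Ern2-/-, 2 to 4 in CONV-Ern2-/- against COLONIZED-Ern2-/- (3.29% to 18.4%), 0 to 1 for the genotype label in each state and for the CONV interaction, and 0 elsewhere. The replicate block gave 7, 4 and 3 calls in COLONIZED-WT against GF-WT, COLONIZED-Ern2-/- against GF-Ern2-/- and CONV-Ern2-/- against COLONIZED-Ern2-/-, where 16.3%, 7.2% and 7.35% of all genes were called, with Dbp lost in the first and Per2 gained in both others (adjusted p 0.00997 and 0.0033), and the main counts elsewhere. Whether replicate numbers pair the samples cannot be settled from correlations of 3 libraries per group. All pairs were over 0.1 in 0 of 9 comparisons (r from −0.28 to 0.633). Yet 16 of 27 pairs correlated best with their own number. Among them were all 3 in COLONIZED-Ern2-/- against GF-Ern2-/- and in CONV-WT against COLONIZED-WT, where the lowest r was 0.0896 and 0.0886. The r with Arntl went from −0.527 to −0.619 for Nr1d2 and from −0.306 to −0.15 for Per2 under log2(CPM + 1). Without the 2 farthest libraries r was smaller in size for every member but Clock, at −0.489 for Dbp, −0.154 for Nr1d2 and −0.0226 for Nfil3. Depth limits Dbp most, at 5 counts in 1 library.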

Other observations

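Genes outside the clock and hormone lists were ranked by their Pearson r with Arntl over the 18 libraries, among 10852 genes with a mean normalized count of at least 50. The highest were Rnpep (0.79), 3110062M04Rik (0.785), Tma7 (0.78), Dusp19 (0.752) and Cbr2 (0.692). The lowest were Slit2 (−0.697), Sardh (−0.695), Ppp1r13b (−0.684), Ccdc64 (−0.667) and Arhgef37 (−0.656). Without GF-WT replicate 3 and CONV-WT replicate 2 the first 5 ran from 0.134 to 0.396 and the other 5 from −0.602 (Slit2) to −0.39 (Sardh). The libraries share their groups, so these values are a description and carry no test.

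Pairs of clock genes were also compared by the deviations of their log2 levels from the group means, over 18 libraries and 45 pairs, again as a description. Arntl and Nfil3 had an r of 0.806, Per2 and Per3 0.797, and Nr1d1 and Nr1d2 0.765. Arntl and Dbp had the lowest, −0.816, followed by Per3 and Cry1 at −0.683.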
